A study of Mus musculus with 6 samples.

Results

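Mouse CD4+ T cells stimulated through CD3 and CD28 in control conditioned medium (ConCM) are the base state described here. The group held 2 replicate arrays of the 6 in the series, and both were used in full. Cells of mouse spleen had been selected on magnetic beads for CD4, kept in RPMI medium with 10% serum and stimulated for 12 hours with anti-CD3 and anti-CD28 antibodies (1 µg/ml). The control medium was conditioned by HEK-293, a human cell line from embryonic kidney, and the culture therefore held what those cells secrete. Strain, age and genotype of the mice are not stated, nor is it stated whether different animals or cultures gave the replicates, and their spread may therefore be technical. No unstimulated sample was analysed here, so the levels describe the stimulated state and show no change upon stimulation.

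A naive CD4+ T cell is small and quiescent. Engagement of the T cell receptor together with CD28 activates NFAT, NF-kappaB and AP-1 factors, which switch on IL-2 and the high-affinity chain of its receptor, and the cell then raises glycolysis, ribosome synthesis and nutrient uptake before its first division. Helper lineages are told apart by the cytokines they secrete and by master transcription factors such as T-bet, GATA-3 and Foxp3.

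Each gene was read from 1 probe set of an Affymetrix whole-transcript array, on a log2 scale on which 1 unit is a 2-fold difference in signal. Of 41345 probe sets 23521 carried a single gene symbol, and they covered 22180 genes. Where several probe sets carried the same symbol, the one with the highest mean over the ConCM arrays was taken. Gene levels ran up to 13.36, with a median of 5.64 and a 95th percentile of 9.69. A percentile given with a gene below is its position among the 22180 genes. Probes differ in how strongly they bind, so these positions order signals within the arrays and do not order transcripts by abundance. As a yardstick for low signal, 1447 genes of olfactory, vomeronasal, taste and trace amine receptors, which work in sensory tissue, were taken. Their median was 3.15 and their 95th percentile, called the reference level, was 5.39. It marks a signal range and is not a detection call. Over all genes 12268 of 22180 (55.3%) had a mean above the reference level, and this share is the background for each count below. A stricter level of 6.32, the 95th percentile of 59 genes restricted to other tissues such as liver, muscle or eye, was passed by 8806 genes (39.7%).

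**Figure D1:**
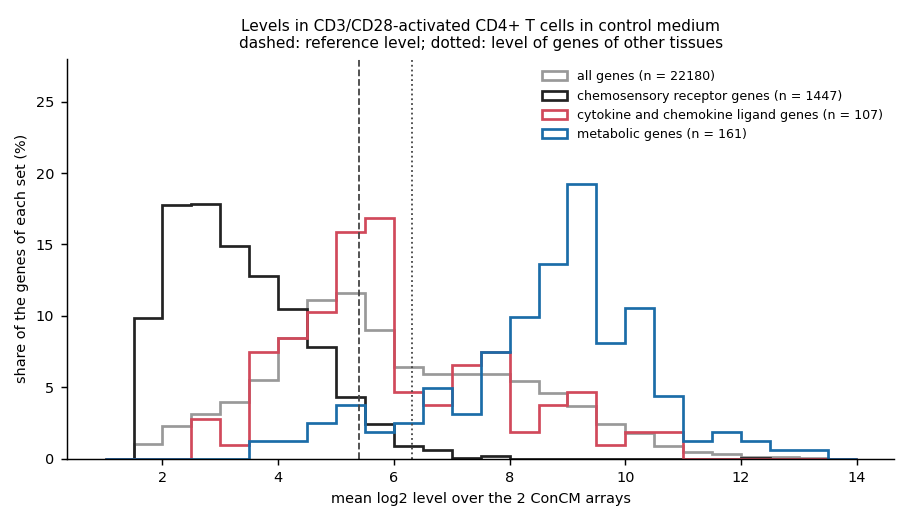
Histogram of mean log2 levels over the 2 ConCM arrays, as the share of each gene set per bin, for all 22180 genes, 1447 chemosensory receptor genes, 107 cytokine and chemokine ligand genes and 161 metabolic genes. The dashed line is the reference level of 5.39 and the dotted line the stricter level of 6.32; most metabolic genes lie to the right of both lines, while many ligand genes lie close to them.

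Replicate error was small for most genes. The median absolute difference between the replicates was 0.12 log2 units, and 95% of genes differed by less than 0.43. It shrank with signal, from a median of 0.17 in the lowest decile of genes to 0.08 in the highest. A difference of 1 unit or more, a 2-fold gap, was found for 23 genes (0.104% of 22180), of which 2 had a mean above the reference level. Pearson's r between the arrays was 0.995 across genes, a description only, since genes are not independent. With 2 arrays of 1 condition no test was made, and each SD below rests on n = 2.

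The markers of activated CD4+ T cells were high. Cd4, the co-receptor that binds MHC class II, had levels of 11.26 and 11.39 on replicates 1 and 2, a mean of 11.33 ± 0.10 (SD, n = 2) at percentile 99.3. Cd3e, a signalling chain of the T cell receptor complex, had 12.06 and 11.84, a mean of 11.95 ± 0.15 at percentile 99.7. Il2ra, the inducible CD25 chain of the IL-2 receptor, had 12.18 and 12.13, a mean of 12.15 ± 0.04 at percentile 99.8. These 3 genes were in the top 1% of all genes by their means. Il2, the growth factor that activated T cells secrete, had 7.43 and 7.30, a mean of 7.37 ± 0.09 at percentile 72.7, above the reference level on both arrays but outside the top 5%. As RNA was taken from cells in bulk, fewer cells with a transcript and less of it per cell cannot be told apart.

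All 32 measured genes for T cell identity were above the reference level, with a median of 9.94, and 21 of them were in the top 5%, where 5.0% of all genes lie. Of the CD3 chains, Cd3g had a level of 10.65 ± 0.09 and Cd3d one of 9.26 ± 0.06. Among 21 genes of receptor signalling the median was 9.98. Ptprc, the CD45 phosphatase, had 11.98 and 11.95, and Lcp2, the adaptor SLP-76, had 11.78 and 11.74. Malt1, the paracaspase that links the receptor to NF-kappaB, had 11.58 and 11.40. At the other end of that list stood Cd6 at 9.11 ± 0.17, Skap1 at 8.30 ± 0.17 and Bcl10, the partner of Malt1, at 8.25 ± 0.04, all still far above the reference level. The 8 measured genes of the CD4 lineage ranged from Satb1, a chromatin organiser of T cells, at 11.47 ± 0.06, over Cd4 itself, listed with them, and Lef1 at 10.96 ± 0.01, Bcl11b at 9.89 ± 0.01, Runx1 at 9.18 ± 0.02, Gata3 at 8.64 ± 0.10 and Tox at 6.89 ± 0.02 down to Zbtb7b, the CD4 lineage factor ThPOK, at 6.64 (6.64 on either array). Genes with no probe set of their own symbol alone, among them Lck, Cd247, Tcf7 and Il2rg, were not analysed here.

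**Figure D2:**
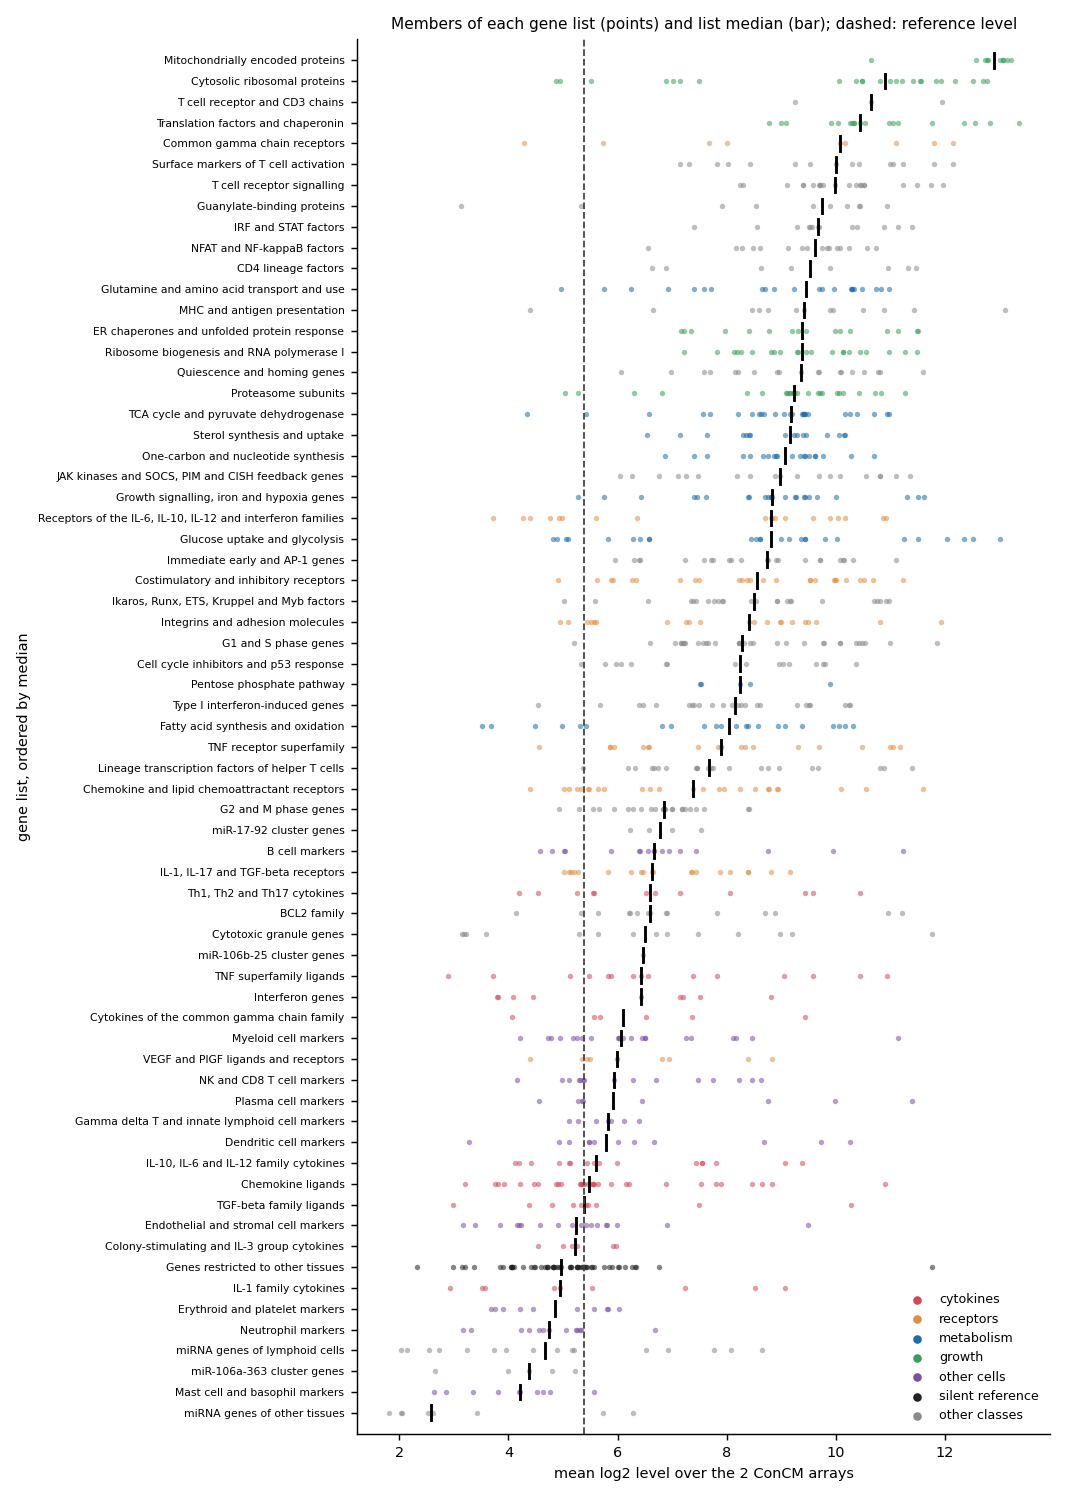
Mean log2 level over the 2 ConCM arrays of every measured member (points) of 66 gene lists, ordered by list median (black bars), with the reference level of 5.39 as a dashed line and colours for the class of a list. Mitochondrially encoded and ribosomal genes stand at the top, T cell receptor chains are among the uppermost lists, and mast cell, neutrophil, erythroid, IL-1 family and other-tissue lists lie at the lower end with several miRNA lists.

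Receptors and surface molecules of activation stood high as a group. All 15 measured surface markers of activation were above the reference level, with a median of 10.00, and 8 were in the top 5%. Besides Il2ra these included Il2rb, the shared beta chain of the IL-2 and IL-15 receptors, at 11.79 and 11.82. Icos, a costimulatory receptor related to CD28, had 11.22 and 11.23. The TNF receptor family members Tnfrsf9 (4-1BB) and Tnfrsf4 (OX40) had 10.96 and 11.14, and 11.05 and 10.96. Lowest on that list were Cd40lg, the ligand through which T cells help B cells, at 7.83 ± 0.27, Cd44, an adhesion receptor of activated and memory cells, at 7.31 ± 0.01, and Pdcd1, the inhibitory receptor PD-1, at 7.14 ± 0.32. Nrn1, which encodes neuritin, was among the listed genes with the widest spread, at 7.62 and 8.44.

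Transcription factors that follow receptor engagement, and the regulators listed with them, were above the reference level in every measured case. Of 23 immediate early and AP-1 genes all were above the reference level, and their levels reached from 5.96 to 11.10. Myc, a transcription factor that drives growth of activated lymphocytes, led them at 11.16 and 11.05. The orphan receptor genes Nr4a3 and Nr4a1 had means of 10.33 ± 0.02 and 10.13 ± 0.08, while Nr4a2 had one of 6.39 ± 0.18. Zfp36, which destabilises cytokine mRNA, had 10.16 ± 0.09 and the MAP kinase phosphatase Dusp5 10.09 ± 0.10. Of the AP-1 subunits, Batf3 (6.30 ± 0.21) and Fosb (5.96 ± 0.16) were the lowest of the list with Nr4a2. All 16 genes of NFAT and NF-kappaB were above the reference level, with a median of 9.61. Nfkbia, the inhibitor IkappaB alpha that NF-kappaB itself induces, had 10.78 and 10.71, Rela 10.64 and 10.51, and Rel 10.17 and 10.33. At the low end stood Rcan1, the calcineurin inhibitor that NFAT induces, with 6.69 and 6.42.

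Genes of quiescence and homing were present beside those of activation. All 19 measured ones were above the reference level, with a median of 9.37, and 8 were in the top 5%. Ccr7, which guides naive T cells into lymph nodes, had 11.62 and 11.59, at percentile 99.6. Slfn2, a gene needed for T cell quiescence, had 10.81 and 10.82, and the transcription factor Foxp1 had 10.85 and 10.71. Txnip, an inhibitor of glucose uptake, had 10.67 and 10.37 and the antiproliferative gene Btg1 10.40 and 10.21. The lowest 3 of the list were Pik3ip1 at 7.59 ± 0.01, Foxo3 at 6.98 (on either array) and Tsc22d3, a glucocorticoid-induced gene, at 6.07 ± 0.26.

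Cytokine genes spread over the whole range. Of 107 measured cytokine and chemokine ligands, 63 (58.9%) were above the reference level, beside 55.3% of all genes, and 37 (34.6%) were above the stricter level, beside 39.7% of all genes. The median ligand, at 5.56, was close to the median gene, and 4 ligands were in the top 5%. The share of ligands above either level was thus near that of all genes. Lymphotoxin beta (Ltb), which with lymphotoxin alpha forms a membrane-bound ligand, had 10.90 and 10.98. Ccl22, a chemokine for CCR4-bearing T cells, had 10.71 and 11.09. Tnf had 10.38 and 10.51, and Tgfb1, a cytokine of regulatory and Th17 differentiation, 10.30 and 10.27.

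Within the common gamma chain family, Il21, which helper cells make for B cells, had the widest replicate spread of the measured cytokines, at 9.81 and 9.07. Il2 followed at 7.37 ± 0.09 and Il9, a mast cell growth factor, at 6.52 ± 0.46. Il15 (5.68 ± 0.32) and Il4 (5.56 ± 0.24) were within 1 SD of the reference level, and Il7, which stromal cells supply, was below it at 4.07 ± 0.03. Il2ra, Il2rb, Il4ra, which binds IL-4 and IL-13, at 11.11 ± 0.10, Il21r at 10.18 ± 0.20 and Il7r at 10.09 ± 0.14 were all in the top 5%. Crlf2, the receptor chain for TSLP, had 8.09 and 7.91, Il15ra 7.67 ± 0.03 and Il9r 5.74 ± 0.03, and Tslp itself, a ligand of epithelial cells kept on this list, 4.29 ± 0.01.

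Of 12 effector cytokines of Th1, Th2 and Th17 cells 9 were above the reference level and 7 above the stricter one. Tnf (10.44 ± 0.09) and Lta, lymphotoxin alpha (9.59 ± 0.10), were followed by Il21. Il13, the Th2 cytokine of mucus and airway responses, had 8.09 and 8.04. Ifng, the defining Th1 cytokine, had 7.44 and 6.83, a spread of 0.43 (SD, n = 2). Il17f, of Th17 cells, had 6.67 and 6.69, whereas its neighbour and partner Il17a had 5.35 and 5.76, on either side of the reference level. Il5, of Th2 cells, had 5.21 and 5.31, just below it, and Il31 (4.54 ± 0.01) and Il22 (4.20 ± 0.07) were lower still. Th1, Th2 and Th17 cytokines thus each had a member above the stricter level, and for the Th2 and Th17 sets other members lay near or below the reference level.

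Growth factors for myeloid cells were low in the distribution: 2 of 6 colony-stimulating and IL-3 group genes were above the reference level and 0 above the stricter one. Csf1 had 5.98 ± 0.19 and Csf2 (GM-CSF) 5.97 and 5.86, with a further Csf2 probe set at 4.50, while Csf3 (5.17 ± 0.13), Il3 (4.98 and 5.02) and Kitl (4.53 ± 0.18) were below the reference level. In the IL-6, IL-10 and IL-12 families 10 of 16 (62.5%) were above it, beside 55.3% of all genes. Above the stricter level were 6 of these ligands (37.5%, beside 39.7%). Lif, leukaemia inhibitory factor, had 9.47 and 9.30 and Osm, oncostatin M, 9.17 and 8.98. Clcf1 had 7.55 ± 0.01 and the subunits Ebi3 and Il27 of IL-27 7.81 ± 0.17 and 7.55 ± 0.02, with another Ebi3 probe set at 4.93. Lifr and Osmr, the receptors for the first pair, had 4.93 ± 0.01 and 4.27 ± 0.24, below the reference level, whereas their partner chain Il6st (gp130) had 10.12 and 10.23. Lowest of these ligands were Il19 (4.41 ± 0.13), Il22 and Il20 (4.12 ± 0.05). In the IL-1 family Il1b (9.07 ± 0.07), Il1a (8.52 ± 0.19) and Il1rn, which encodes the receptor antagonist (7.24 ± 0.03), were above the stricter level, and these are genes that myeloid cells also make in quantity.

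Of 15 TNF superfamily ligands 12 were above the reference level. Besides Ltb, Tnf and Lta they included Tnfsf8, the ligand of CD30, at 8.97 and 9.13, whose receptor gene Tnfrsf8 had 8.33 ± 0.13. The ligands Cd70 (3.71 ± 0.25) and Tnfsf18 (2.89 ± 0.11) were below the reference level on both arrays. Their receptors were at the other end: Cd27, the receptor of CD70, had 10.43 and 10.54, and Tnfrsf18 (GITR), the receptor of TNFSF18, had 11.17 and 11.20, the top of its list. The 20 TNF receptor genes were above the reference level in 19 cases, with Tnfrsf17 (BCMA, of plasma cells) the exception at 4.57 ± 0.05.

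Chemokine ligands were above the reference level in 17 of 32 cases (53.1%). After Ccl22 came the CXCR3 ligands Cxcl10 (8.93 and 8.73) and Cxcl9 (8.57 and 8.73), then Ccl5 at 8.48 ± 0.14 and Cxcl16 at 7.91 ± 0.01. Ccl17, which shares the receptor CCR4 with Ccl22, had 5.08 and 5.83, so that the replicates fell on either side of the reference level. Lowest were Ccl8 (3.80 ± 0.09), Ppbp (3.75 ± 0.27) and Ccl12 (3.21 ± 0.47). Of 25 receptors for chemokines and lipid attractants 20 were above the reference level. Ccr7 was followed by Gpr183, an oxysterol receptor that positions activated T cells, at 10.56 ± 0.04, S1pr1, the receptor for exit from lymphoid organs, at 10.10 ± 0.05, Cxcr4 at 8.71 and 9.16 and P2ry10 at 8.93 ± 0.15. The tissue-homing receptor Ccr10 (5.01 ± 0.12) and the innate receptors Xcr1 (5.11 ± 0.14) and Ccr1 (4.40 ± 0.06) were below.

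**Figure D3:**
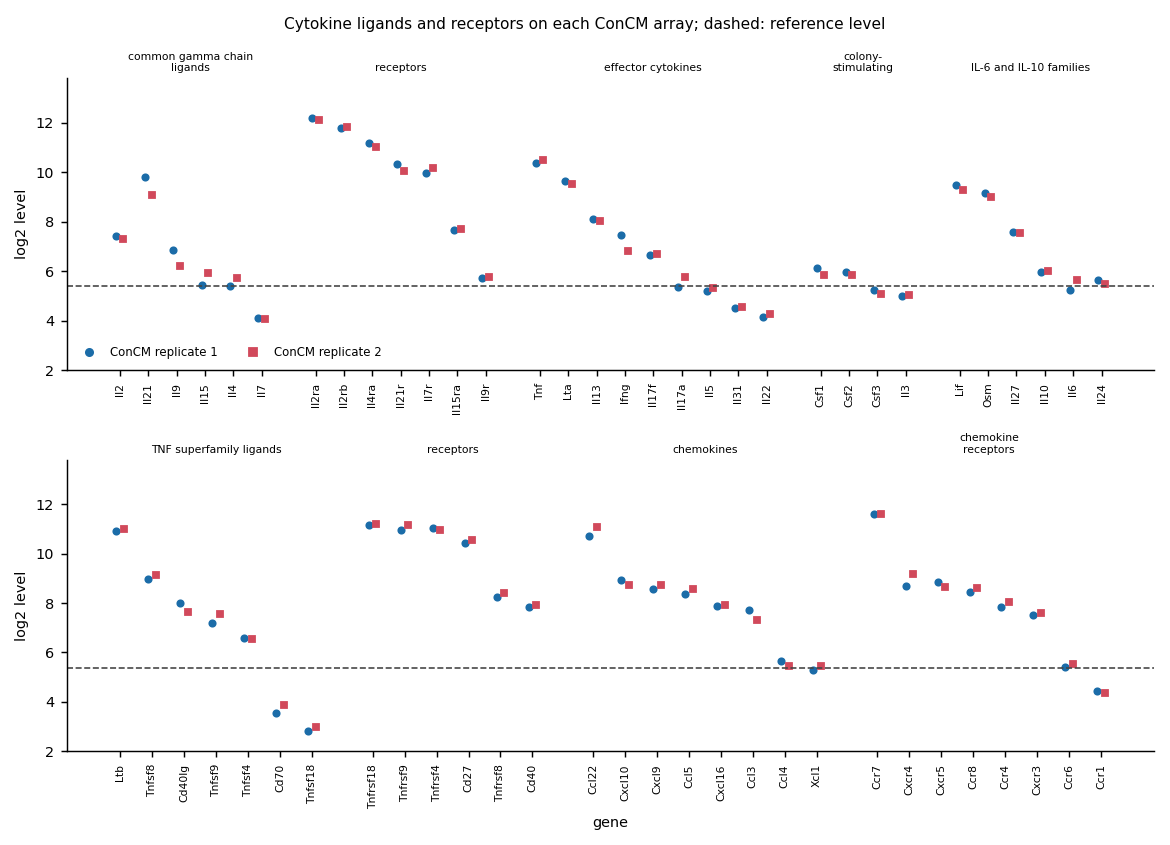
Log2 level of cytokine and chemokine ligands and of their receptors on ConCM replicate 1 (circles) and replicate 2 (squares), with the reference level of 5.39 as a dashed line. In the common gamma chain family Il2ra and Il2rb lie near 12 and Il2 at 7.43 and 7.30, and in the TNF family Tnfrsf18 lies at 11.17 and 11.20 while Tnfsf18 lies at 2.81 and 2.97; levels of different genes come from different probes.

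The receptor and adhesion lists as a class contrasted with the cytokine lists in their position. They also hold some ligands, such as Vegfa, Pgf, Tslp and Cd274. Of their 150 measured genes 127 (84.7%) were above the reference level, 104 (69.3%) above the stricter level and 28 in the top 5%, with a median of 7.85. For the IL-6, IL-10, IL-12 and interferon receptors the count was 13 of 19. Ifngr1 had 10.91 and 10.94, Il12rb2, the chain that lets Th1 cells respond to IL-12, 10.98 and 10.75, Il27ra 10.04 ± 0.07 and Ifnar1 9.90 ± 0.15. The lowest were Il20ra (4.40 ± 0.19) and Osmr, receptors of epithelial and stromal cells, and Il22ra2 (3.71 ± 0.05). In the IL-1, IL-17 and TGF-beta group 15 of 20 were above, led by Il17ra at 9.16 ± 0.17 and Tgfbr2 at 8.82 ± 0.06, and none was in the top 5%.

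Costimulatory and inhibitory receptors were above the reference level in 25 of 26 cases. Icos was followed by Slamf6 (10.56 and 10.80, with another probe set at 6.51), Cd5 at 10.53 ± 0.17, the inhibitory receptor Btla at 10.45 ± 0.18 and Cd274, the PD-1 ligand, at 10.19 ± 0.09. Havcr2 (TIM-3), a receptor of exhausted and Th1 cells, had 5.52 and 6.32, and Cd160 4.52 and 5.32, 2 of the widest replicate spreads among listed genes. Pdcd1lg2, the other PD-1 ligand, had 7.17 and 7.84. Replicate 2 was the higher one for these 3 genes and for 18 of the 26 on the list.

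Adhesion genes were led by Selplg, the selectin ligand PSGL-1, at 11.94 ± 0.01, Itgb2 at 10.82 (on either array) and Itgal at 9.65 ± 0.09, the last being the chains of LFA-1. For the VEGF family, to which the placental growth factor of the wider study belongs, 8 of 10 genes were above the reference level and 4 above the stricter one. The ligands Vegfa (8.86 and 8.81) and Vegfb (8.34 and 8.43) led. Nrp2 had 6.95 ± 0.12 and Nrp1, a co-receptor that regulatory T cells also carry, 6.49 and 7.13. Vegfc had 5.95 and 6.04. The receptors Kdr (5.99 ± 0.11) and Flt1 (5.51 and 5.50), and Pgf itself (5.28 and 5.61), lay near the reference level. Flt4 (5.35 ± 0.05) and Vegfd (4.39 ± 0.29) were below it.

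Lineage factors of several helper subsets were above the stricter level at once. Of 22 measured, 21 were above the reference level and 19 above the stricter one, and their median was 7.68. Irf4, which grades the response to receptor strength, had 11.42 and 11.39. Stat4, the signal of IL-12, had 10.73 and 11.04. Foxp3, the factor of regulatory T cells, had 10.68 and 10.96, a mean of 10.82 ± 0.19 at percentile 98.7. Stat6, the signal of IL-4, had 9.68 ± 0.03 and Id2 9.58 ± 0.19. Outside the naming rule, and chosen after their values were seen, Tbx21 (T-bet, of Th1 cells) had a mean of 8.97 ± 0.05 and Bcl6, of follicular helper cells, 6.56 and 6.94. Lowest were Hlx at 6.32 ± 0.01, Id3 at 6.19 ± 0.11 and Ascl2 at 5.36 ± 0.04, the last just below the reference level.

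Signalling factors shared by many cytokines were uniformly above the reference level, in 13 of 13 IRF and STAT genes and 19 of 19 genes of JAK kinases and their feedback. Stat3 had 11.15 ± 0.05 and Irf1 10.39 (on either array). Jak1 had 11.11 and 11.12 and Jak2 10.82 and 10.80. Pim1 and Pim2, kinases that STAT5 induces, had 11.36 and 10.81 ± 0.08, but a further Pim1 probe set had 5.35, below the reference level. Socs7 (7.10 ± 0.13), Pias3 (6.76 ± 0.14), Socs5 (6.26 ± 0.02) and Socs6 (6.04 ± 0.02) were at the lower end. Among Ikaros, Runx, ETS, Kruppel and Myb factors Ikzf1 (10.98 ± 0.09), Ets1 (10.92 ± 0.02), Fli1 (10.81 ± 0.01), Ikzf3 (10.76 ± 0.03) and Elf1 (10.70 ± 0.08) led 24 genes. Spi1 (PU.1) at 6.56 ± 0.12, Klf4 at 5.58 ± 0.13 and Spib at 5.01 ± 0.16, which are factors of myeloid and B cells, ended the list.

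Metabolic genes were placed high. Of 161 measured, 149 (92.5%) were above the reference level, 142 (88.2%) above the stricter level and 41 in the top 5%, with a median of 8.90. In glycolysis, Gapdh had 13.03 and 13.01, Pkm, the pyruvate kinase of proliferating cells, 12.54 and 12.50, Pgk1 12.35 (on either array) and Tpi1 12.04 (likewise). Pfkp, the platelet-type phosphofructokinase, had 11.43 and 11.58. Some isoforms lay far apart. Slc2a1 (GLUT1), the glucose transporter that CD28 brings to the surface, had 11.22 and 11.30, though its other probe set had 6.16. The muscle and liver transporters Slc2a4 and Slc2a2 had 5.09 ± 0.05 and 5.05 ± 0.13, below the reference level. Likewise Ldhc, the lactate dehydrogenase of testis, had 4.89 ± 0.09 and Pgam2, the muscle phosphoglycerate mutase, 4.82 ± 0.38. Among the pyruvate dehydrogenase kinases, Pdk1 had 9.33 and 9.54 (another probe set at 4.50) and Pdk4 4.29 and 4.40.

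In the TCA cycle 25 of 26 genes were above the reference level. Idh3g (11.03 and 10.94), Mdh2 (10.95 and 10.94), Idh3b (10.75 and 10.66), Cs, citrate synthase (10.34 and 10.44), and Sdha (10.31 and 10.22) led, and Pdk2 (6.58 ± 0.06), Pcx (5.43 ± 0.11) and Pdk4 closed the list. All 10 measured proteins encoded by mitochondrial DNA were in the top 5%, with a median of 12.90. ND4, of complex I, had 13.18 and 13.28 and COX1, of complex IV, 13.10 and 13.21. ND6, which is read from the other strand of that DNA, had 10.62 and 10.68.

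Amino acid uptake and use was above the reference level in 21 of 22 genes, 11 of them in the top 5%. The transaminases Got2 and Got1 had 10.98 ± 0.04 and 10.84 (on either array), with another Got2 probe set at 5.62. Srm, spermidine synthase, had 10.87 and 10.62. Slc38a1 and Slc1a5, which carry glutamine, had 10.49 ± 0.06 and 10.34 ± 0.12. The cystine carrier Slc7a11 had 4.78 and 5.15, below the reference level. All 20 genes of one-carbon and nucleotide synthesis were above it, from Shmt2, the mitochondrial serine hydroxymethyltransferase, at 10.75 and 10.67 and Paics, of purine synthesis, at 10.33 and 10.22 down to Rrm2, the S-phase subunit of ribonucleotide reductase, at 6.80 and 6.93. Other probe sets of Rrm2 (3.41) and of the purine synthesis gene Gart (4.73) were below it. All 16 sterol genes were above as well. Srebf2, the master factor of the pathway, had 10.21 and 10.13, Insig1 10.09 and 10.21, and Hmgcs1 10.02 and 10.12, and the efflux transporter Abca1 had 6.54 ± 0.10.

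Of 22 fatty acid genes, 17 were above the reference level. The highest were the synthesis genes Acly at 10.32 ± 0.02, Elovl5 at 10.18 ± 0.04 and Fasn at 10.06 ± 0.06 and the oxidation gene Hadha at 9.96. Other synthesis genes lay lower, such as Acaca at 8.39 ± 0.05 and Scd1 at 6.81 ± 0.11. The fat cell and liver regulators Pparg (4.49 ± 0.18) and Ppargc1a (3.68 on either array) and the fatty acid translocase Cd36 (3.52 ± 0.09) were below it. Of the growth and hypoxia genes 23 of 24 were above, including the ferritin gene Fth1 at 11.60 and 11.66, the oxygen sensor Egln3 at 11.57 and 11.44 and Hif1a at 11.43 and 11.20. Hamp, the hormone hepcidin of liver, was below at 5.41 and 5.13.

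**Figure D4:**
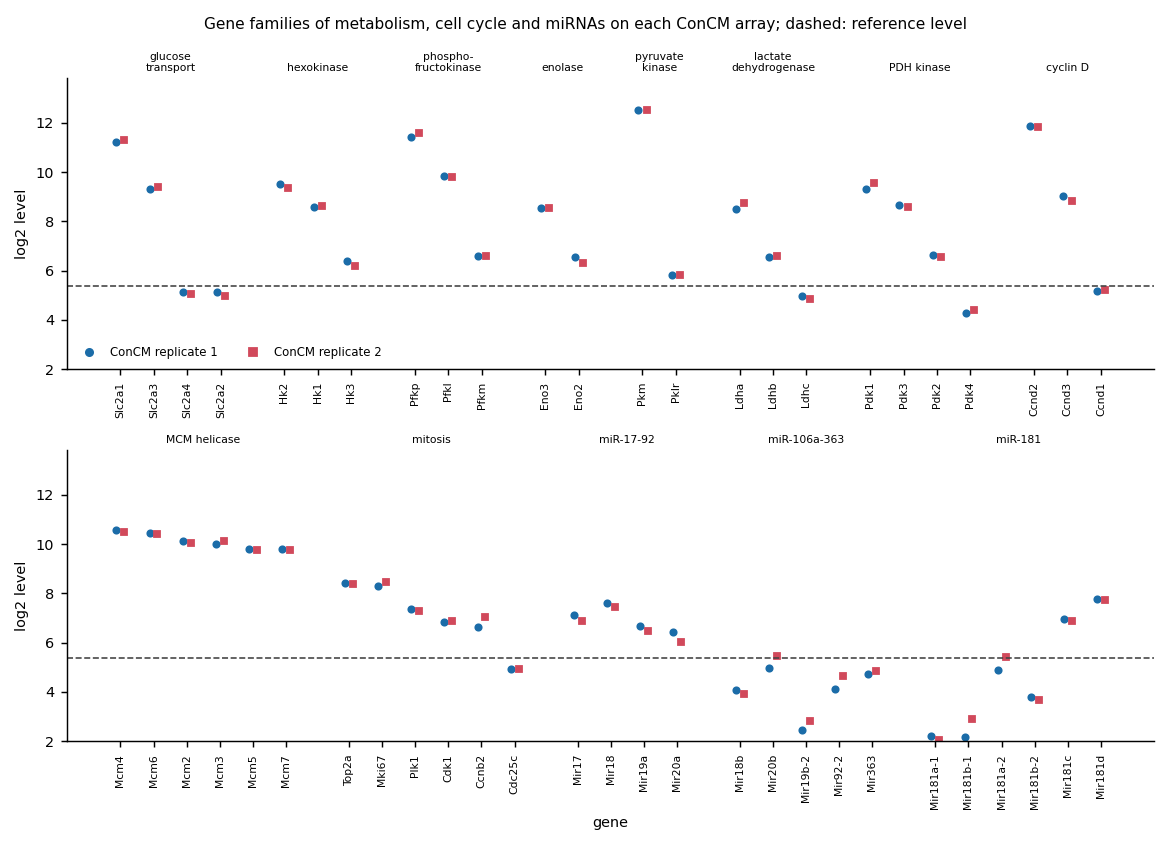
Log2 level on ConCM replicate 1 (circles) and replicate 2 (squares) for isoform families of glucose metabolism, cyclins D, MCM helicase, mitotic genes and miRNA clusters, with the reference level of 5.39 as a dashed line. Within some families certain members lie far above the line (Slc2a1 at 11.22 and 11.30, Ccnd2 at 11.86 and 11.84) and others below it (Slc2a2, Ccnd1). In other families, such as MCM helicase, all members lie above it, as do the 4 genes of miR-17-92. Levels of different genes come from different probes.

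Genes of protein synthesis were placed high. Of 19 translation and chaperonin genes 16 were in the top 5% and 7 in the top 1%. Eif4a1, the helicase of translation initiation, had 13.33 and 13.40, the highest gene when the brightest probe set is taken, while its other probe set had 9.16. Eef1a1 and Eef2, the elongation factors, had 12.84 ± 0.01 and 12.56 ± 0.01. All 22 genes of ribosome biogenesis and RNA polymerase I were above the reference level, among them the nucleolar proteins Npm1 (11.43 and 11.57), Ncl (11.26 and 11.29) and Nop56 (11.08 and 10.89). Of 24 cytosolic ribosomal proteins 22 were above it and 11 in the top 1%, but Rps16 (4.95 ± 0.21) and Rps15 (4.88 ± 0.13), parts of the same particle, were below. Some of the highest had much lower second probe sets, such as Rpl4 (12.52, other 7.85) and Rplp1 (12.20, other 7.70), and with the lowest probe set of each gene the list's median percentile moved by 22.1 points, the most of the 66 lists. A ribosomal protein gene can share sequence with its pseudogenes. All 16 chaperones of the endoplasmic reticulum were above, led by Hsp90b1 (11.58 and 11.43) and Calr (11.60 and 11.38).

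The cell cycle lists differed by phase in their positions. Of 32 genes for G1 and S phase 31 were above the reference level and 10 in the top 5%, with a median of 8.28. Ccnd2, the cyclin D of lymphocytes, had 11.86 and 11.84. Pcna, the polymerase clamp, had 11.10 and 10.90, Mcm4, of the replicative helicase, 10.59 and 10.48, and Cdk6, the kinase partner of cyclin D, 10.47 and 10.50. All 10 genes with an Mcm symbol were above the reference level. Ccnd1, the cyclin D of many other tissues, had 5.16 and 5.23, below it. Of 25 genes for G2 and mitosis 23 were above the reference level and none in the top 5%, with a median of 6.85. Top2a (8.43 and 8.38) and Mki67, the Ki-67 antigen (8.32 and 8.46), led, followed by Aurkb at 7.58 ± 0.05. Birc5 (survivin) and Cdc25c, the phosphatase that starts mitosis, had 5.29 ± 0.04 and 4.93 ± 0.02. Of 16 inhibitors and p53 response genes 15 were above the reference level and 11 above the stricter one, with Bbc3, a promoter of cell death, below at 5.34 ± 0.01. Cdkn1a (p21) had 9.72 and 9.82, and Ccng1, a p53 target, 10.42 and 10.32. Of the BCL2 family 13 of 15 were above the reference level, with the survival genes Bcl2 (11.15 and 11.27, another probe set at 6.04) and Mcl1 (11.03 and 10.89) at the top.

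Interferon-response and antigen presentation genes were broadly above the reference level, in 23 of 24 and 12 of 13 cases. B2m, the light chain of MHC class I, had 13.14 and 13.08 and H2-K1 11.39 and 11.48. Bst2 (tetherin) had 10.44 and 10.09, Zbp1 10.29 and 10.21 and Parp14 10.12 and 10.22, and Mx1, which laboratory strains often carry in defective form, had 4.61 and 4.46. Of 10 guanylate-binding protein genes, which interferon gamma induces, 8 were above and 5 in the top 5%, with Gbp10 at 10.99 and 10.89 and Gbp6 at 3.02 and 3.23. Probe sets of such families can bind related members. Cytotoxic genes were above in 9 of 14 cases. Srgn, which packs granules, had 11.74 and 11.80 and Gzmb, granzyme B, 9.09 and 8.88, while Gzmc (3.22 ± 0.03), Gzmg (3.18 ± 0.20) and Gzmd (3.16 ± 0.14) were at the low end.

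Pooled, markers of other cell types were above the reference level about as often as all genes, but their lists differed. Of 131 measured, 67 (51.1%) were above the reference level, beside 55.3% of all genes, and 39 (29.8%) above the stricter level, beside 39.7%. The 102 that stand on no list besides those of other cells gave 50 (49.0%). Their levels bear on the cytokine and antigen presentation genes above that other cells also make, such as Il1b, Il1a, Cxcl9 and H2-Ab1, and their part in those levels was not tested. The B cell list was above in 13 of 17 cases (76.5%, beside 55.3% of all genes). Above the stricter level were 12 of them (70.6%, beside 39.7%). Its summed linear signal was 4903.5 on replicate 1 and 5158.3 on replicate 2, of which Ighm alone made up 48.7% and 46.7%. Ighm, the heavy chain of IgM, had 11.22 and 11.23, but another of its probe sets had 5.33. The class II genes H2-Ab1 (9.88 and 10.03) and H2-Aa (8.56 and 8.96) followed, then Fcer2a (CD23) at 7.29 and 7.61 and Ebf1, the B lineage factor, at 7.17 and 7.14. Values for further defining markers, chosen after they were seen, were 6.94 ± 0.08 for Cd79a, 6.81 ± 0.13 for Pax5 and 6.40 ± 0.01 for Ms4a1 (CD20). Cr2, the complement receptor of mature B cells, had the widest replicate gap of all listed genes, at 5.45 and 4.62.

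On the myeloid list 15 of 22 were above the reference level (68.2%, beside 55.3% of all genes). Above the stricter level were 9 of them (40.9%, beside 39.7%). The summed signals were 4328.0 and 4431.7, of which Ctsb made up 51.1% and 52.3%. Ctsb, a lysosomal protease that T cells make as well, had 11.11 and 11.18, Cd68 8.47 (on either array), Cybb 8.21 and 8.14, the beta-glucan receptor Clec7a a mean of 8.12 ± 0.17, and the complement gene C1qb 7.49 and 7.20. The lysozyme gene Lyz2 (4.78 ± 0.13), Cd163 (4.73 ± 0.03) and Ms4a7 (4.21 ± 0.02) were below. Dendritic cell markers were above in 9 of 12 cases, with sums of 3086.1 and 2852.7. Bst2, which interferon induces in many cells, made up 45.0% and 38.3% of these, and Ly75 had a level of 9.74 ± 0.07. Cd209a had 8.80 and 8.58, and 4.82 with its other probe set, while Clec10a (4.93 ± 0.16) and Clec4a4 (3.28 ± 0.31) were below. For NK and CD8 T cells 8 of 15 (53.3%) were above, and 6 (40.0%) were above the stricter level, with sums of 1957.8 and 1933.1. Fcer1g had 8.57 and 8.70, Cd8b1 8.31 and 8.14, and Cd8a, chosen after its value was seen, 6.25 and 5.61, while the NK receptors Ncr1 (4.98 ± 0.14) and Klrb1c (4.16 ± 0.18) were below. Plasma cell markers were above in 4 of 8 cases, and 3 of these, Irf4, Xbp1 and Prdm1, are T cell genes as well; Jchain, the joining chain of secreted IgM, had 5.35 and 5.40.

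Of 13 neutrophil markers 1 was above the reference level, Csf3r at 6.71 and 6.66, and S100a8, among the strongest transcripts of neutrophils, had 3.23 and 3.09, within the range of the chemosensory genes; the list summed to 432 and 419. Of 10 mast cell and basophil markers 1 was above, Kit at 5.45 and 5.68, and Fcer1a and Mcpt4 had 2.86 ± 0.05 and 2.63 ± 0.04. Erythroid and platelet genes were above in 4 of 10 cases, none of them above the stricter level. Endothelial and stromal genes were above in 8 of 18, led by Pecam1 at 9.47 and 9.54, which leukocytes also carry, while Dcn (3.38 ± 0.07) and Emcn (3.17 ± 0.10) were below. Gamma delta and innate lymphoid markers were above in 5 of 7, with 1 above the stricter level, Sox13 at 6.49 and 6.30.

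miRNA genes were described by their clusters, since the probe sets cover the precursor loci. Of 484 measured miRNA genes 140 (28.9%) were above the reference level, fewer than among all genes. The miR-17-92 cluster, a set of growth-promoting miRNAs that activated lymphocytes use, lies on chromosome 14, and its paralogue, the miR-106a-363 cluster, on chromosome X. Members of both carry the same seeds, the bases 2 to 8 that pair with targets, and cannot be told apart by seed alone. Mature sequences are shown 5′ to 3′ from RefSeq (GRCm38.p6) with the seed in capitals, to show what the clusters share.
Mir17, miR-17-5p, chr14:115043684-115043706, plus strand: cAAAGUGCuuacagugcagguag
Mir20a, miR-20a-5p, chr14:115044183-115044205, plus strand: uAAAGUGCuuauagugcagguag
Mir20b, miR-20b-5p, chrX:52742159-52742181, minus strand: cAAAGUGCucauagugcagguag
Mir18, miR-18a-5p, chr14:115043867-115043889, plus strand: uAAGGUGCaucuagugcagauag
Mir18b, miR-18b-5p, chrX:52742381-52742403, minus strand: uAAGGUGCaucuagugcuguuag
Mir19a, miR-19a-3p, chr14:115044048-115044070, plus strand: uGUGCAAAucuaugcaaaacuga
Mir19b-2, miR-19b-3p, chrX:52741991-52742013, minus strand: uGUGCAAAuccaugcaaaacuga

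All 4 measured genes of miR-17-92 were above the reference level. Mir18 had 7.62 and 7.44, Mir17 7.13 and 6.86, Mir19a 6.69 and 6.45, and Mir20a 6.42 and 6.04, and replicate 1 was the higher for each. None of 5 measured genes of miR-106a-363 was above it by its mean. Mir20b, which shares the seed of Mir17 and Mir20a, had 4.98 and 5.44, Mir363 4.74 and 4.87, Mir92-2 4.13 and 4.63, Mir18b 4.07 and 3.93, and Mir19b-2 2.48 and 2.82. Pairs with 1 seed were thus on different sides of the reference level, Mir18 against Mir18b and Mir19a against Mir19b-2. Mir106b, of a further related cluster on chromosome 5, had 6.48 and 6.45.

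The miR-181 family showed the same kind of split among genes with 1 seed. This family, of which miR-181a tunes the sensitivity of the T cell receptor, is transcribed from 3 loci. On chromosome 8 Mir181d had 7.78 and 7.75 and Mir181c 6.98 and 6.88. On chromosome 2 Mir181a-2 had 4.90 and 5.43 and Mir181b-2 3.80 and 3.66, and on chromosome 1 Mir181a-1 had 2.21 and 2.05 and Mir181b-1 2.18 and 2.91. The mature forms differ outside the seed, as these members show.
Mir181d, miR-181d-5p, chr8:84178759-84178781, minus strand: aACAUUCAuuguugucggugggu
Mir181c, miR-181c-5p, chr8:84178924-84178945, minus strand: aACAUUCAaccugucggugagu
Mir181a-1 and Mir181a-2, miR-181a-5p, chr1:137966468-137966490 and chr2:38852741-38852763, plus strand: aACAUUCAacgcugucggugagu
Among other miRNA genes of lymphoid cells, Mir142, of blood cells, had 8.47 and 8.83, Mir210, of the hypoxia response, 7.97 and 8.21, and Mir29a, which restrains interferon gamma, 6.47 and 6.58. Mir29b-1 (2.72 ± 0.34) and Mir146 (2.02 ± 0.21) were among the lowest. Precursor probe sets do not measure the mature miRNA.

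Promoter composition varied with the level. For 12835 protein-coding genes with a single promoter in RefSeq (GRCm38.p6), the 250 bases before the gene start were read and both strands searched. Genes were ranked by level into 10 deciles. The median number of CpG dinucleotides rose from 1 in the lowest decile to 19 in the highest, and the median GC content from 37.2% to 62.0%. The GC box GGGCGG, which Sp1 binds, was in 4.44% of windows in the lowest decile, 65.6% in the highest and 44.4% of all. The ETS motif CCGGAAG was in 0.701%, 18.1% and 9.50%. The TATA motif TATAAA ran the other way, with 33.5%, 6.07% and 12.7%. GGAAA, the core of NFAT sites and of many ETS sites, varied little, with 62.0%, 54.7% and 55.5%. CCGGAAG and GGAAA share the letters GGAA but do not contain each other, and a match of letters is no evidence of binding. Among the 7432 windows of genes above the reference level the contrasts were smaller, with TATAAA at 10.1% in the lowest decile and 7.67% in the highest, GGGCGG at 44.7% and 67.0%, and CCGGAAG at 5.11% and 17.8%. There the rise in CpG was from 8 to 19, and among all genes but the chemosensory receptors it was from 2 to 19.

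**Figure D5:**
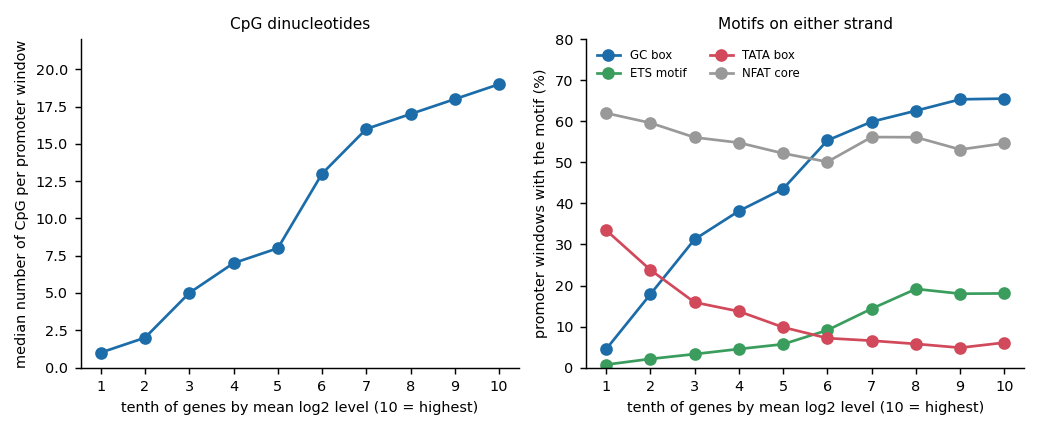
Promoter windows of 250 bases before the gene start for 12835 protein-coding genes in deciles by mean log2 level in ConCM (10 is highest). Left, the median number of CpG dinucleotides rises from 1 to 19; right, the share of windows with the GC box and the ETS motif rises, the share with the TATA box falls from 33.5% to 6.07%, and the NFAT core stays between 50.2% and 62.0%.

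The classes differed in these features. Of 74 cytokine promoters 27 (36.5%) held TATAAA, with a median of 3 CpG, and of 11 for Th1, Th2 and Th17 cytokines 7 did, against 1 of 8 in the IL-10, IL-6 and IL-12 families. Genes restricted to other tissues were like the cytokines, with TATAAA in 14 of 40 and a median of 3 CpG. Of 112 metabolic promoters 7 (6.25%) held TATAAA, with a median of 16 CpG. GGAAA was in 58 of 74 cytokine windows (78.4%), beside 55.5% of all windows, and in 10 of 10 for the TNF superfamily ligands. Some lists outside the cytokines also had high shares, such as myeloid markers (10 of 12) and cytosolic ribosomal proteins (12 of 15). The whole classes of other-cell markers and growth genes had 64.0% and 55.1%. Growth genes had a median of 18 CpG, and 16 of 78 (20.5%) held CCGGAAG, beside 9.50% of all. Promoters of the receptor lists were between cytokine and metabolic promoters in CpG, with a median of 7. TATAAA was in 7 of 105 of them (6.67%), a share near that of metabolic promoters. These shares describe letters in the window and were not tested.

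The windows of 4 genes, 1 for each motif, are given as examples. The motif is in capitals on whichever strand it was found, and the window reads in the direction of the gene. Other motifs in a window are not marked. Il2 stands for a regulated cytokine gene of low CpG content (2 CpG, 40.4% GC), with GGAAA sites that start 137 and 47 bases before the gene start. Its window also holds TATAAA. Tnf has TATAAA 29 bases before its start (10 CpG), and its window also holds GGAAA and GGGCGG on the opposite strand. Rps6 has CCGGAAG 91 bases before its start (19 CpG), and Nop56 has GGGCGG on the opposite strand 104 bases before its start (25 CpG, 65.2% GC).
Il2, chr3:37125955-37126204, minus strand: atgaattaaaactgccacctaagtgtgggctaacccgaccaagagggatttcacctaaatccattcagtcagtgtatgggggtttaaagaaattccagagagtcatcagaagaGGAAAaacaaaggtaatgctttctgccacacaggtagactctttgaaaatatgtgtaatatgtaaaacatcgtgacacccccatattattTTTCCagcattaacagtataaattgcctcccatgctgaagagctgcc
Tnf, chr17:35202008-35202257, minus strand: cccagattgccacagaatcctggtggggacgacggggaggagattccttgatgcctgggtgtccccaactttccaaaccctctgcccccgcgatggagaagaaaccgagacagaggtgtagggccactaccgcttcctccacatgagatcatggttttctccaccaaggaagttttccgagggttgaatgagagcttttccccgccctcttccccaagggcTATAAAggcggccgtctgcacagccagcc
Rps6, chr4:86857368-86857617, minus strand: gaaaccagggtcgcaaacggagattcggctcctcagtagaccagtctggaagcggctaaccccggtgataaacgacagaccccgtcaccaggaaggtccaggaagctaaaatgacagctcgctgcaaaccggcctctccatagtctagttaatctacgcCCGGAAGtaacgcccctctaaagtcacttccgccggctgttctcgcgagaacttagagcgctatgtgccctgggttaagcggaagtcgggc
Nop56, chr2:130274162-130274411, plus strand: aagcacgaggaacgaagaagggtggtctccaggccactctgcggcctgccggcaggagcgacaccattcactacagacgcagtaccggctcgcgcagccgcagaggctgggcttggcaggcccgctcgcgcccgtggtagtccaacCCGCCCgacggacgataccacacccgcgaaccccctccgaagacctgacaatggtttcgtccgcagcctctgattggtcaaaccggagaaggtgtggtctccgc

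The replicates differed by small steps that ran the same way through some lists. Over all genes replicate 1 was the higher in 12207 of 22180 cases, with a median difference of 0.02. In ribosome biogenesis replicate 1 was the higher for 19 of 22 genes, with a median difference of 0.16, and Nop58 had 10.74 and 10.38. One-carbon and nucleotide genes were higher on replicate 1 in 16 of 20 cases, by a median of 0.17, TCA cycle genes in 21 of 26, by 0.09, and interferon-induced genes in 18 of 24, by 0.13. Sterol genes were higher on replicate 2 in 14 of 16 cases, by a median of 0.10 (a difference of -0.10), and guanylate-binding protein genes in 8 of 10, by 0.17 (-0.17). With 1 array on each side these steps were not tested.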

How the data were processed

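RNA of the ConCM replicates was hybridised to Affymetrix whole-transcript arrays, 1 array per sample. The values are the log2 levels per probe set as deposited by the authors. The submitters' processing notes name Transcriptome Analysis Console. Which version, background correction, normalization and genome build they used is not given in the sources used here. Such steps can compress differences among low signals, and 2 arrays give little precision for any SD.

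Of 41345 probe sets 16010 had no gene in the platform annotation and 1814 had several, and neither kind was used. Gene IDs of 23328 probe sets matched RefSeq. Of the 1146 genes on 66 lists, 1021 were measured. The members and lists were chosen with earlier results of these data known, and 7 of the lists were added after the files had been read. Mean, SD and percentile were computed per gene, counts above the reference level per list, and no test was made, since there is 1 condition with 2 arrays. The scripts were tested on simulated data. Python 3.11.15, pandas 2.3.3, numpy 2.4.6, scipy 1.17.1 and matplotlib 3.10.9 were used.

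The genes named were taken from those a rule allows: the 4 core markers, the 20 highest genes, per list up to 5 of the highest and 3 of the lowest members (any member of a list of up to 12 that a sentence describes), and listed genes with a replicate gap of 1 or more or among the 10 widest. Lifr, Mir181a-2, Mir181b-2, Mir29b-1, Pdk1, Slc2a1, Slc2a4, Acaca, Scd1, Socs7 and Tnfrsf8 fall outside it, as do several genes in the plots of cytokines and of isoform families, and were chosen after their values were seen. Alternatives were other reference levels, other rules for genes with several probe sets, ranks over all probe sets and leaving out either replicate.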

Additional observations from a re-analysis of the deposited data

How the results depend on the processing

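The counts of genes above the reference level depend on where that level is set. With the 99th percentile of the chemosensory genes (6.47) in its place, 35 cytokine and chemokine ligands and 34 markers of other cells were above it, against 63 and 67, and 8418 of all 22180 genes against 12268. With the 90th percentile the counts were 80 ligands, 95 markers and 14934 genes. With the genes of other tissues as the reference (6.32) the counts were 37 and 39. Of the 23 genes with a 2-fold replicate gap, 2 were above the reference level. The rise in median CpG from the lowest to the highest decile was 18, and 11 among genes above the reference level alone. That alternative was chosen after seeing the data, as was the count of 50 markers on no list besides those of other cells. Leaving out either replicate gave 12132 to 12369 genes above the reference level. Ligands were then 59 to 64, genes of the receptor lists 123 to 127 and factors 71 to 72. Metabolic genes were 148 to 149 and markers of other cells 67 to 70. Of 502 named genes, 34 moved by over 5 percentile points when the lowest probe set was taken in place of the highest, and 24 with the mean of probe sets. Most of these genes have 1 probe set, which stays the same under either rule. Among listed genes and the highest genes, 83 had several probe sets, and for 72 these differed by at least 1 log2 unit. For 21 the gene was above the reference level but its lowest probe set was not. No paired analysis was possible because 1 group was analysed.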

Other observations

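Of the 16010 probe sets with no gene name, 7606 (47.5%) were above the reference level. Highest among genes expected in other tissues was Odf1, of sperm tails, at 11.77, while its other probe set had 4.50. The vomeronasal receptor Vmn1r233 had a level of 12.1, and its other probe set had 3.99. Both genes were chosen after their values were seen. Among miRNA genes Mir5099 had 13.03, Mir449b 11.92 and Mir692-1 11.08, above each of the miRNA genes of lymphoid cells on the list.

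Families that share the start of their symbol, chosen after their counts were seen, showed a wide range. All 43 Mrpl genes of the mitochondrial ribosome, 33 of 33 Vps genes of vesicle sorting, 15 of 15 Timm genes of mitochondrial import and 44 of 47 Snord genes of small nucleolar RNAs were above the reference level. Of the 21 Prl genes of the prolactin family, 12 Spink, 11 Skint and 11 Ugt genes none was. On chromosome X 358 of 905 genes (39.6%) were above it, beside 55.3% of all genes. By biotype the share was 59.6% for protein-coding genes, 24.1% for lncRNA genes and 86.4% for snoRNA genes.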
